A study of Homo sapiens with 6 samples.

Results

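Of the 6 samples in the series, the 4 doxorubicin-tolerant K562 clones were compared here in pairs set by the level of the genes around ABCB1 in band 7q21. The 2 clones ATC2 and ATC4 had these genes raised together, and the 2 clones ATC1 and ATC3 had ABCB1 raised with most of its neighbours near the parental level. The pairs were therefore selected on these very values, read by eye and with no numeric threshold. Everything on the long arm of chromosome 7 is given below as a description without a test, and tests are given for genes elsewhere.

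K562 is an established human line of chronic myeloid leukaemia. The anthracycline doxorubicin leaves topoisomerase II caught on cut DNA. Wells of 10000 K562 cells, 480 in all, were given 100 ng/ml doxorubicin and later 225 ng/ml, 21 wells survived 4 weeks, and 4 were grown on as ATC1 to ATC4, all kept in 225 ng/ml. Each well began with many cells, so a clone is not shown to descend from 1 cell, and each clone has 1 library. The other groups are untreated parental K562 (libraries Parental_1, in the same table as the clones, and Parental_2, in another) and a parental culture after 48 h in 225 ng/ml doxorubicin, which is not used here. All 4 clones carry the same drug history, and all are labelled anthracycline-tolerant, so the pairs differ by no treatment that the labels record.

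ABCB1 encodes P-glycoprotein, a membrane pump that carries anthracyclines and many other drugs out of cells. In drug-selected cell lines its RNA is known to rise with or without extra copies of the DNA around it. Apart from its paralog ABCB4, the genes around it include some of unrelated role, such as DMTF1, a transcription factor that acts on the ARF tumour suppressor. DNA copy number was not measured in these samples.

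The promoters of the 3 genes that mark the pairs are shown because these genes lie in the same raised stretch and differ in how they stood in the 4 clones. RefSeq on GRCh38.p14 lists 1 start for DMTF1 (chr7:87152203-87152502, plus strand), 2 for ABCB1 (chr7:87713246-87713545 and chr7:87600835-87601134, minus strand) and 1 for RUNDC3B (chr7:87628148-87628447, plus strand). Each window runs from 250 bases before the start to 50 after it. Capitals mark GC boxes (GGGCGG, or CCGCCC on the other strand), CCAAT boxes (CCAAT or ATTGG) and TATA boxes (TATAAA or TTTATA).
DMTF1: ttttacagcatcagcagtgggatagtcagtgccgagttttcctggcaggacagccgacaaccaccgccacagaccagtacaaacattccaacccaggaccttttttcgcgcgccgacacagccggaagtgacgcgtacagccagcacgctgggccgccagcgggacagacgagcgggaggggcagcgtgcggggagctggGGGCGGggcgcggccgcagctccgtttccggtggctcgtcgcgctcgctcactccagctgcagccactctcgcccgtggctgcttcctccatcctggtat
ABCB1, upstream start: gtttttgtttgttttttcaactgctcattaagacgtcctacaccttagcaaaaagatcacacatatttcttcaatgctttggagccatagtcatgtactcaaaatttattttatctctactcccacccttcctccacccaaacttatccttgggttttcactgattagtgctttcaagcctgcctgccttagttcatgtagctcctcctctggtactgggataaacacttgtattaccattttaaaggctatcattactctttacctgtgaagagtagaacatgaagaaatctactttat
ABCB1, downstream start: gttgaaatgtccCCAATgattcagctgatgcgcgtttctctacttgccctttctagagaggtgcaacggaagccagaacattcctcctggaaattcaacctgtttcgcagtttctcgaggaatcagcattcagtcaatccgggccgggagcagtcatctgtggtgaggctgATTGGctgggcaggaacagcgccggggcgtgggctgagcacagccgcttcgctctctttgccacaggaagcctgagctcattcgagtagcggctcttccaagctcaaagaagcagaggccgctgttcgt
RUNDC3B: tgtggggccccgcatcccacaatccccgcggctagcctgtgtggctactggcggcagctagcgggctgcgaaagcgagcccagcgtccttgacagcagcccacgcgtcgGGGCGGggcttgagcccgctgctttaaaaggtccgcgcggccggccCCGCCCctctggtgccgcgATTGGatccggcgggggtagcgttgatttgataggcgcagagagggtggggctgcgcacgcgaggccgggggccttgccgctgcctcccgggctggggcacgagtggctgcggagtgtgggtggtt
The DMTF1 window was 65.3% G and C with 29 CpG sites, and the RUNDC3B window 71.3% with 32. The 2 windows of ABCB1 differed from each other, the upstream one with 37.7% and 1 CpG site and the downstream one with 55.3% and 16. The median over 35116 RefSeq promoters was 58.7%. A GC box was found once in DMTF1 and 2 times in RUNDC3B, and 45.0% of all promoters hold one. A CCAAT box was found 2 times in the downstream ABCB1 window and once in RUNDC3B, against 34.6% of all promoters. No window held a TATA box on either strand, while 11.5% of all promoters hold one. Counts per gene do not show which ABCB1 start was used.

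The clone libraries held 18420238 to 21361758 counts and Parental_1 held 20895918. The erythroid regulator GATA1 was expressed in all 4 clones, at 288 to 376 CPM (counts scaled to library size, with TMM correction for library composition), against 338 CPM in Parental_1. The B cell marker MS4A1 had 0 or 1 count in every clone and the T cell marker CD3E 5 to 14, while CD3D had 51 in ATC4 and 477 to 590 in the others. The fibroblast gene COL3A1 had 8 to 42 counts and the monocyte gene CD14 had 16 to 27. Mitochondrially encoded genes took 6.83% and 9.63% of the counts in ATC1 and ATC3, and 5.07% and 6.05% in ATC2 and ATC4.

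ABCB1 itself (ENSG00000085563, chr7:87503633-87713323, GRCh38) stood far above the parental level in every clone. It measured 468 CPM in ATC1, 2250 CPM in ATC2, 403 CPM in ATC3 and 779 CPM in ATC4, against 2.80 CPM in Parental_1 and 2.34 CPM in Parental_2. ATC2 was the highest and ATC4 lay 0.74 above ATC1 on the log2 scale, so the pairs did not overlap but came close. The means were 1510 ± 1040 CPM (SD, n = 2) and 436 ± 45.6 CPM (SD, n = 2), a 3.47-fold difference. On the log2 scale (prior count of 2) the pair difference was 1.61, and it was 0.84 without ATC2 and 2.37 without ATC4. Relative to Parental_1, ABCB1 was higher by 7.33 and 7.12 in ATC1 and ATC3, and by 9.60 and 8.07 in ATC2 and ATC4.

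DMTF1 (ENSG00000135164, chr7:87152361-87196337) measured 161, 671, 142 and 298 CPM in ATC1 to ATC4, and the parental libraries gave 111 and 127 CPM. ATC2 and ATC4 were both above ATC1 and ATC3, which stood 0.53 and 0.35 above Parental_1 on the log2 scale. Its pair difference was 1.57, close to that of ABCB1.

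RUNDC3B (ENSG00000105784, chr7:87627548-87832296) had 301 counts in ATC2 and 232 in ATC4, beside 7 in ATC1 and 25 in ATC3, and 1 in Parental_1. It was low in ATC1, ATC3 and both parental libraries. The means were 13.7 ± 2.65 CPM in ATC2 and ATC4 and 0.809 ± 0.691 CPM in ATC1 and ATC3 (SD, n = 2 each). On the log2 scale ATC1 and ATC3 stood at 1.45 and 3.18 relative to Parental_1, and at -0.34 and 1.39 relative to Parental_2. So ATC3 was above both parental libraries, on low counts. The pair difference of RUNDC3B, 4.15, was the highest of the neighbours. RUNDC3B and ABCB1 overlap on opposite strands, and whether the counting kept strands apart is stated in no source used here, so one could hold reads of the other. The part of such reads in either gene was not tested.

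The list of neighbours held 14 genes from GRM3 to STEAP4, and 13 reached 20 counts in at least 1 clone. STEAP4, a metalloreductase, had 3, 8, 7 and 4 counts and was not compared. All 13 were higher in both ATC2 and ATC4 than in both ATC1 and ATC3, where 15.1% of all genes compared were, and 9 of them by at least 2-fold in every pairing, where 0.96% of all genes were. Their median pair difference was 2.26 (range 1.57 to 4.15), and it was 1.65 without ATC2 and 2.82 without ATC4. These counts describe how the pairs were chosen and support nothing further.

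KIAA1324L, now named ELAPOR2, had 1932, 12912, 1784 and 7797 counts in the 4 clones in order, and Parental_1 had 886. ATC2 and ATC4 were both at least 4-fold above ATC1 and ATC3 in CPM. CROT, the peroxisomal carnitine octanoyltransferase, had 97, 967, 97 and 387 counts against 158 in Parental_1. Its levels in ATC1 and ATC3 lay below Parental_1 by 0.92 and 0.75 on the log2 scale, and those in ATC2 and ATC4 above it by 2.54 and 1.20.

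SLC25A40, a carrier of the inner mitochondrial membrane, had 800, 5019, 818 and 2728 counts against 876 in Parental_1. DBF4, the activating subunit of the replication kinase CDC7, had 1438, 5837, 1602 and 4574 counts against 1667. SRI, the calcium-binding protein sorcin, had 837, 4945, 1647 and 2560 counts against 1434. In all 3 genes ATC1 and ATC3 were within 2-fold of Parental_1 or, for SRI in ATC1, lower by 1.01 on the log2 scale. SRI was the one of these whose pairs came closest, with ATC4 0.60 above ATC3.

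ABCB4, the phosphatidylcholine floppase of bile canaliculi, had 67, 336, 35 and 181 counts against 45 in Parental_1. It is a close paralog of ABCB1, so part of its counts may be reads of ABCB1. TP53TG1, a noncoding RNA, had 43, 357, 46 and 160 counts against 56, and C7orf23 (now TMEM243) had 146, 960, 136 and 332 against 52. ADAM22, a catalytically inactive metalloprotease of nerve cells, had 23, 98, 21 and 59 counts against 13. ADAM22 was at 4.95 CPM in Parental_2, beside 5.06 CPM in ATC2. In each of these 4 genes the order was ATC2, then ATC4, then the other pair.

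**Figure D1:**
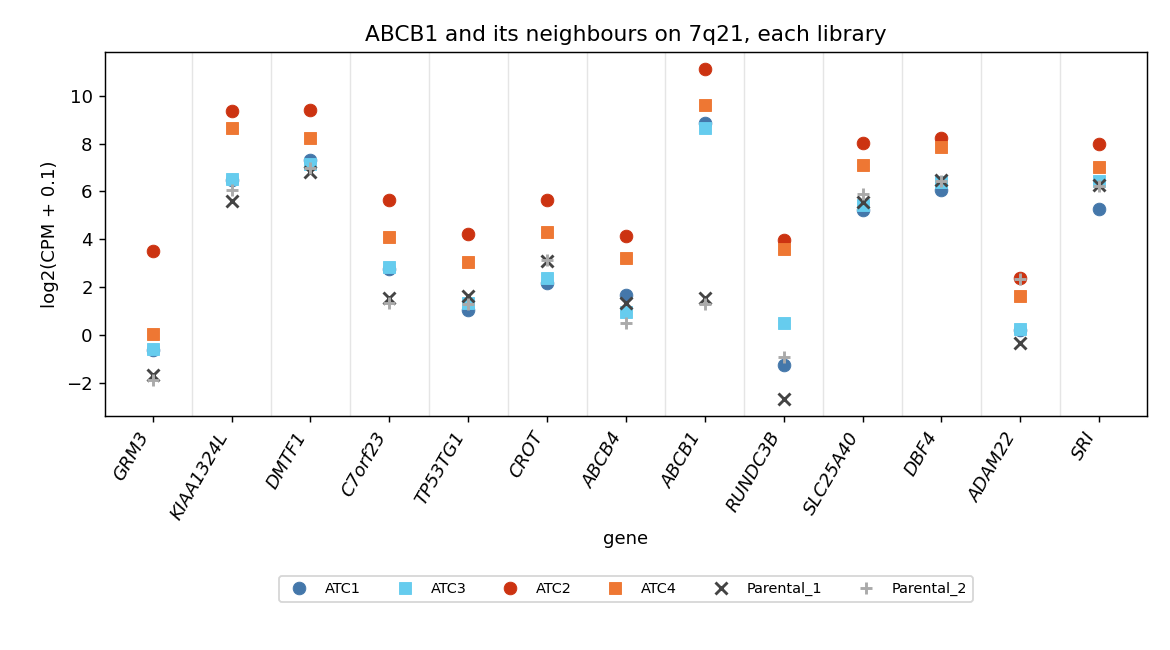
Level of the 13 compared neighbours in gene order (x axis) as log2(CPM + 0.1) (y axis), 1 point per library. ATC2 and ATC4 lie above ATC1 and ATC3 for all 13 genes, and for ABCB1 all 4 clones lie far above the parental libraries.

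The raised genes did not cover the same length of chromosome 7 in the 2 clones. Stretches were marked off after the values were seen, from compared genes in GENCODE 29 order, and are described only. In the stretch that holds ABCB1, from GRM3 to CLDN12 (chr7:86643914-90513402, 22 genes), ATC2 was higher than ATC4 for all 22 genes. The median log2 difference from the mean of ATC1 and ATC3 was 2.75 in ATC2 and 1.65 in ATC4, and 21 and 16 genes were at least 2-fold above that mean. Against Parental_1 the medians were 0.52, 2.74, 0.41 and 1.66 in ATC1 to ATC4. At its far end, GTPBP10, a GTPase of mitochondrial ribosome assembly, had 969, 5067, 799 and 3075 counts against 959 in Parental_1. CLDN12, a claudin, had 648, 4077, 591 and 2051 counts against 351.

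In the next stretch, from CDK14 to SLC25A13 (chr7:90466424-96322147, 32 genes), the order of the 2 clones turned. ATC4 was above ATC2 for 25 of the 32 genes, and the medians over ATC1 and ATC3 were 0.88 in ATC2 and 1.80 in ATC4. CDK14, a cyclin-dependent kinase, had 30, 55, 23 and 267 counts, and MTERF, a mitochondrial transcription termination factor, had 257, 614, 349 and 1681. ATC4 alone stood far above the other 3 clones in both. KRIT1, a gene of cerebral cavernous malformation, had 1613, 2387, 979 and 5551 counts, and AKAP9, a scaffold of the centrosome and Golgi, had 4504, 5867, 2072 and 11450. CDK6, the G1 kinase, departed from this order with 4821, 10920, 3869 and 10931 counts, near equal in ATC2 and ATC4 and at least 2-fold above ATC1 and ATC3 in CPM. COL1A2, a collagen chain in the same stretch, measured 8.03, 47.2, 7.79 and 3.66 CPM against 0.485 CPM in Parental_1, so all 4 clones were above the parental level and ATC4 was the lowest. In CPM, CDK6 was 559 ± 5.83 in ATC2 and ATC4, 211 ± 14.4 in ATC1 and ATC3 (SD, n = 2 each) and 376 in Parental_1.

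On the other side of ABCB1, from PCLO to SEMA3D (chr7:82754013-85186855, 7 genes), ATC4 was above ATC2 for all 7 genes. The medians over ATC1 and ATC3 were 0.61 in ATC2 and 2.92 in ATC4. SEMA3D, a secreted guidance factor, had 7, 1, 4 and 298 counts, so that ATC4 alone carried its RNA. SEMA3A, of the same family, had 378, 386, 103 and 1053 counts against 25 in Parental_1, above the parental level in all 4 clones. PCLO, a presynaptic scaffold, had 8, 23, 5 and 66 counts and was the one gene of the 7 with the pairs 2-fold apart.

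Beyond SLC25A13 the clones of the raised pair parted again. From SHFM1 to CUX1 (chr7:96481626-102283958, 86 genes), ATC2 was above ATC4 for 82 of 86 genes. The medians over ATC1 and ATC3 were 0.74 in ATC2 and -0.44 in ATC4, and no gene was 2-fold higher in the raised pair. AC006329.1, an antisense RNA named after its values were seen and not separable from the gene it overlaps, was at least 2-fold lower, with 63, 20, 78 and 11 counts against 143 in Parental_1. TECPR1, an autophagosome tethering factor, had 553, 1984, 567 and 487 counts, and BHLHA15, a transcription factor of secretory cells, had 16, 154, 11 and 28. ATC2 was high in both, with ATC4 beside ATC1 and ATC3 for TECPR1. On the centromere side, from HIP1 to MAGI2 (26 genes), the medians were 0.52 in ATC2 and 0.06 in ATC4.

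**Figure D2:**
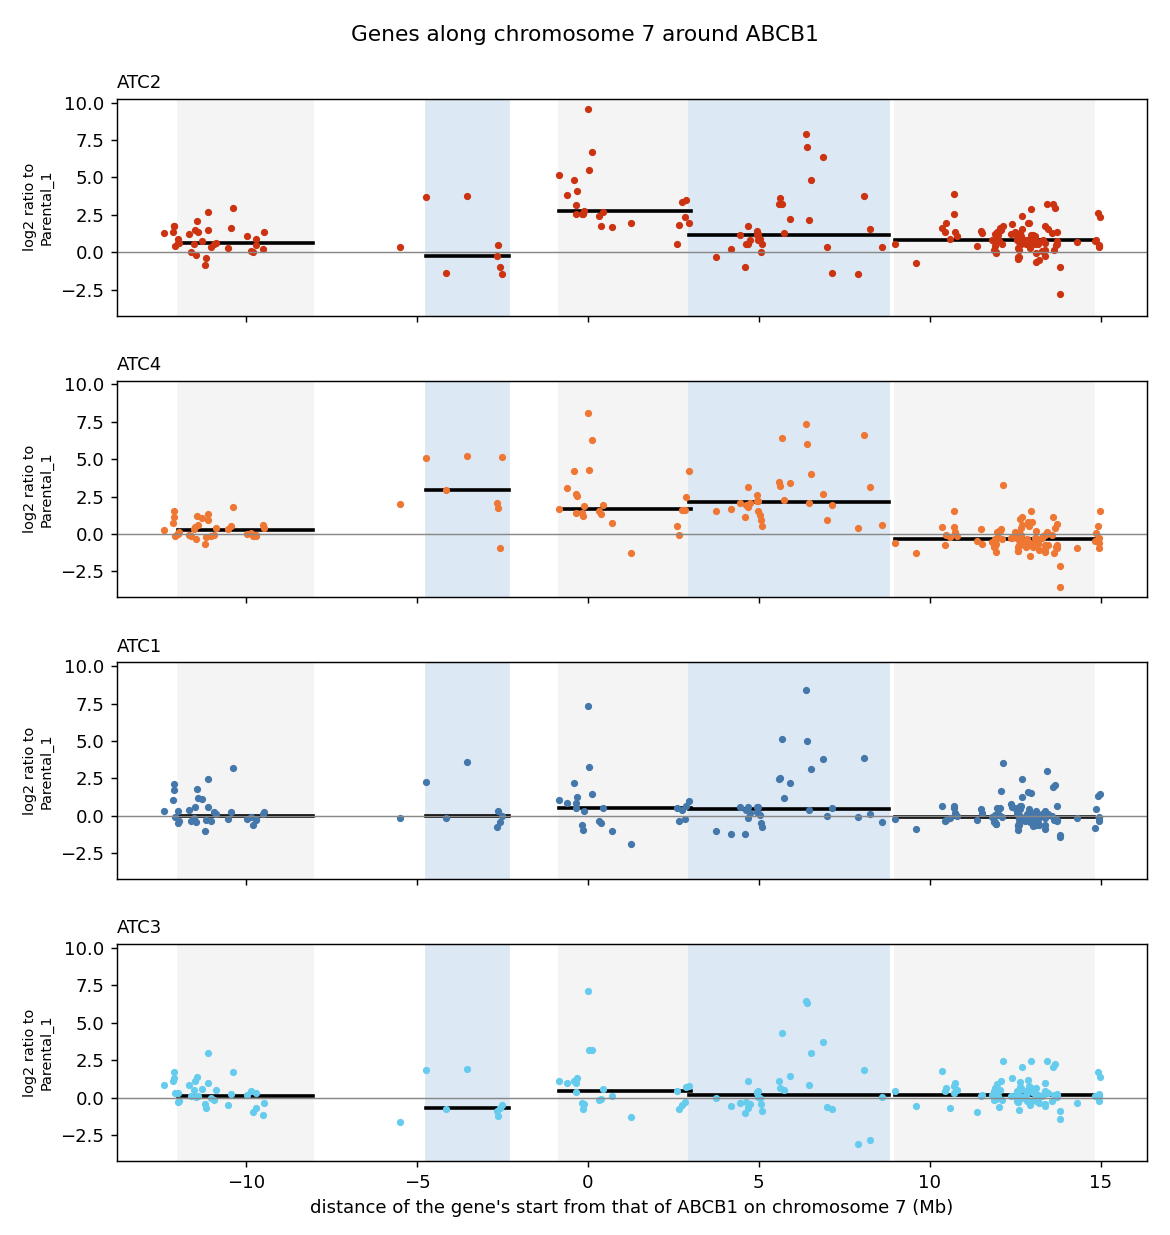
Log2 ratio of each clone to Parental_1 (y axis) for genes by the distance of their start from that of ABCB1 in Mb (x axis), with the 5 stretches shaded in turn and the median of each as a black line. In the stretch at 0 the medians are 2.74 in ATC2 and 1.66 in ATC4, in the stretch to its right 1.17 and 2.15, and in the one to its left -0.22 and 2.92.

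Across the genome, no other region separated the pairs as far as 7q21, on whose genes the pairs were chosen. The rank of the windows there follows from that choice and is a description only. Of 294 windows of 10 Mb with at least 10 compared genes, the window of chromosome 7 from 80 to 90 Mb ranked first by median pair difference (1.98 over 25 genes), and it alone exceeded 1. There 13 of 25 genes were 2-fold apart in the upward direction. The window from 90 to 100 Mb came second (0.79 over 67 genes, 6 of them apart), and the third, on chromosome 5 from 20 to 30 Mb, had 0.57 over 12 genes. In all, 5 windows exceeded 0.5 and 1 lay under -0.5, on the X chromosome from 150 to 160 Mb (-0.71 over 78 genes). There the median against Parental_1 was 0.62, 0.65 and 0.69 in ATC1, ATC2 and ATC3 and -0.66 in ATC4, so ATC4 alone stood apart. The chromosome with the lowest median was 19, at -0.22 over 1095 genes, where 331 genes (30.2%) were lower in both ATC2 and ATC4 than in both ATC1 and ATC3. Over all genes compared that share was 15.2%.

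On the long arm of chromosome 7 as a whole, 23 of 559 compared genes were at least 2-fold higher in both ATC2 and ATC4 than in both ATC1 and ATC3, and 5 were lower. Off this arm the same held for 129 of 15271 genes (0.845%) upward and 52 (0.341%) downward. The 23 were 4.11% of the arm's genes, a share that follows from how the pairs were chosen. One gene elsewhere is a copy of a neighbour: DBF4P1, a pseudogene of DBF4 on chromosome 10, had 12, 28, 7 and 28 counts, and reads of DBF4 may have been counted there.

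Off the arm, edgeR (quasi-likelihood) called 0 of 15857 genes (0%) at an adjusted p under 0.05. P-values were adjusted by Benjamini-Hochberg over all 16435 genes, the arm included. At an unadjusted p of 0.05 edgeR gave 279 genes higher and 192 lower off the arm, 2.97% of 15857. DESeq2 called 43 higher and 11 lower off the arm, and limma-voom called 0 over all genes. Calls over all genes depended on single libraries: without ATC2 edgeR called 189 higher and 196 lower, without ATC4 190 and 28, and without ATC1 or ATC3 none. In those fits the lone clone of a pair was assumed to vary like the clones of the other pair. With 2 clones a side, an exact permutation test of a single value cannot give a two-sided p under 0.333.

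By size alone, 152 of 15830 genes stood at least 2-fold higher in both ATC2 and ATC4 than in both ATC1 and ATC3 (0.96%), and 57 were lower (0.36%). With 1 clone left out fewer values have to meet this condition, and the counts were 807 and 242 without ATC1, 666 and 756 without ATC2, 372 and 311 without ATC3, and 789 and 299 without ATC4.

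UNC5B, a netrin receptor of axons and vessels on chromosome 10, had the lowest p of all genes off the arm. It measured 7.94, 90.3, 5.71 and 95.3 CPM in ATC1 to ATC4, and the parental libraries gave 19.7 and 146 CPM. ATC2 and ATC4 were near equal, at 92.8 ± 3.53 CPM, and the other pair was at 6.82 ± 1.57 CPM (SD, n = 2 each). The log2 fold change was 3.76 ± 0.32 (SE, derived from the F value of the test), with an adjusted p of 0.27 in edgeR, which missed the threshold, and of 5.31e-21 in DESeq2, which passed it. The 2 parental libraries differed more from each other here than ATC2 from ATC4.

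Several genes high in ATC2 and ATC4 were near the level of Parental_1 there and low in ATC1 and ATC3. ARHGAP15, a GTPase-activating protein for Rac, had 8, 509, 44 and 497 counts against 565 in Parental_1. FERMT2, the integrin activator kindlin-2, had 18, 210, 15 and 144 counts against 210. GRID1, a glutamate receptor subunit, had 15, 154, 18 and 206 counts against 293. In these 3 genes ATC2 and ATC4 were within 2-fold of Parental_1, and ATC1 and ATC3 stood at -6.03 to -3.63 relative to it on the log2 scale. S100P, of the S100 calcium-binding family, had 12, 224, 19 and 272 counts where Parental_1 had 144, and ATC2 and ATC4 were within 2-fold of that library in CPM. STRA6, the retinol uptake receptor, had 9, 107, 7 and 311 counts, with 113 in Parental_1 and 11 in Parental_2. ATC4 stood above both parental libraries for STRA6, by 1.36 and 3.91 on the log2 scale. ARHGDIB, a GDP-dissociation inhibitor of blood cells, had 224, 1477, 71 and 816 counts against 1098.

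Others were lower in Parental_1 than in ATC2 and ATC4. EDA2R, a receptor for ectodysplasin A2, had 19, 179, 20 and 181 counts, with 2 in Parental_1 and 1 in Parental_2. Its CPM was 9.21 ± 0.0303 in ATC2 and ATC4 and 0.955 ± 0.118 in ATC1 and ATC3 (SD, n = 2 each), and its edgeR log2 fold change was 3.26 ± 0.53 with an adjusted p of 0.821, against 1.59e-05 in DESeq2. NEB, the muscle protein nebulin, had 443, 1333, 361 and 4493 counts against 357, highest in ATC4. SYT1, a synaptic vesicle calcium sensor, had 1, 60, 1 and 135 counts, while Parental_1 had 5 and Parental_2 had 28. The noncoding RNA CHRM3-AS2 had 1, 83, 1 and 43 counts, with 0 in Parental_1 and 45 in Parental_2. It was at 3.91 CPM in Parental_2, beside 4.28 CPM in ATC2 and 2.18 CPM in ATC4. AC104009.1, also noncoding, had 0, 31, 1 and 118 counts, with 17 in Parental_1 and 5 in Parental_2. In ATC2 it was above Parental_1 by 0.74 on the log2 scale.

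A further 5 genes with the pairs 2-fold apart were picked by hand after their values were seen, and stand for no group of genes. PTPRC, the leucocyte phosphatase CD45, had 3690, 9100, 3570 and 7727 counts, and it was at 151 CPM in Parental_1 and 528 CPM in Parental_2. Its edgeR log2 fold change was 1.28 ± 0.28 (adjusted p = 0.999), and DESeq2 gave an adjusted p of 0.00933. CD80, a costimulatory ligand, had 82, 246, 40 and 172 counts, and PRF1, the pore-forming protein perforin, had 30, 836, 66 and 137 against 1430 in Parental_1. PDCD1, the receptor PD-1, had 31, 92, 19 and 88 counts, and TLR7, a sensor of single-stranded RNA, had 4, 36, 3 and 18. None of these 5 passed in edgeR, while PRF1, like PTPRC, did in DESeq2 (adjusted p = 0.0129). PRF1 was higher in ATC2 than in ATC4. The lymphoid markers beside them summed to 25.0 and 28.5 CPM in ATC1 and ATC3 and to 33.4 and 9.24 CPM in ATC2 and ATC4, and their part in these differences was not tested.

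Among the lower genes, several were near absent in Parental_1 and present in ATC1 and ATC3. ZFP42, the pluripotency factor REX1, had 195, 14, 168 and 6 counts against 5 in Parental_1. ATC1 and ATC3 were near equal at 8.94 and 8.72 CPM, and the edgeR log2 fold change was -4.09 ± 0.65 (adjusted p = 0.821, and 6.85e-06 in DESeq2). SCGN, the calcium sensor secretagogin, had 67, 13, 70 and 4 counts against 0, and ZSCAN4, a factor of early embryos, had 50, 7, 52 and 12 against 0. CTNNA2, an alpha-catenin of nerve cells, had 28, 3, 32 and 4 counts against 1. SLC7A8, an amino acid exchanger, was the most abundant of those named with 6205, 2111, 6294 and 2547 counts against 1037, so all 4 clones were above Parental_1 and ATC1 and ATC3 more so.

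GYG2, a glycogenin that primes glycogen, had 398, 89, 491 and 57 counts against 286 in Parental_1, with ATC2 and ATC4 below the parental level. KLHL13, an adaptor of a CUL3 ubiquitin ligase, had 89, 17, 156 and 8 counts against 35. TERT, the telomerase reverse transcriptase, had 68, 15, 65 and 17 counts against 163 and was below Parental_1 in all 4 clones. PPAP2C, a lipid phosphatase, had 163, 17, 91 and 22 counts against 27. ROBO2, a Slit receptor, had 295, 3, 17 and 2 counts against 19, so ATC1 alone was high. CD9, a tetraspanin, had 905, 318, 664 and 28 counts against 25, and its pair difference of -2.92 was -1.20 without ATC4 and -4.64 without ATC2.

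**Figure D3:**
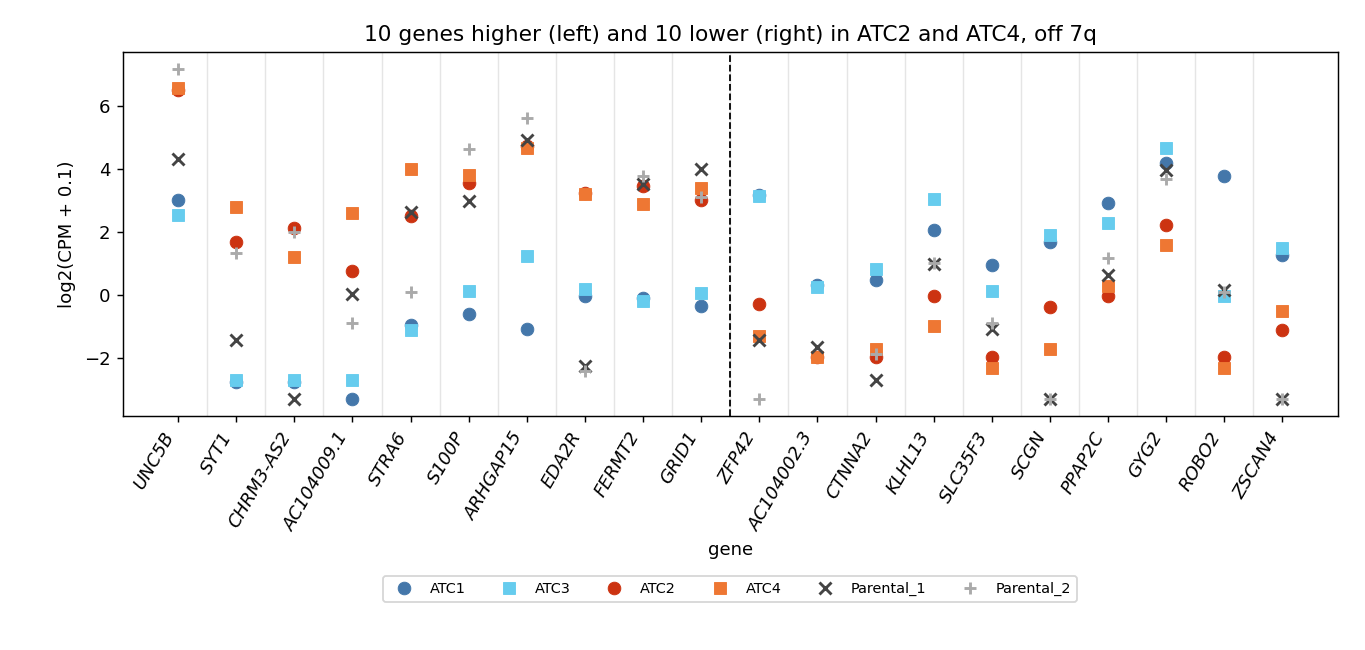
Level as log2(CPM + 0.1) (y axis) of the 10 genes highest and the 10 lowest by the smallest gap between pairs, off the long arm of chromosome 7 (x axis), 1 point per library. ARHGAP15, FERMT2 and GRID1 in ATC2 and ATC4 lie at the parental marks, and EDA2R in both pairs lies above them.

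Set against Parental_1, the genes 2-fold apart off the arm fell into several patterns. Of the 129 higher genes, 36 had both ATC1 and ATC3 within 2-fold of Parental_1, 29 had both ATC2 and ATC4 within it, and 66 had neither. ATC2 and ATC4 were both at least 2-fold above Parental_1 for 64, and ATC1 and ATC3 both at least 2-fold below it for 49. Of the 52 lower genes, ATC1 and ATC3 were both at least 2-fold above Parental_1 for 41, and ATC2 and ATC4 both at least 2-fold below it for 8. With Parental_2 the corresponding counts were 53 and 64 of 128 higher genes, and 35 and 12 of 50 lower genes. That library comes from another table, so its levels were scaled across tables.

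Elsewhere in the genome, ATC2 and ATC4 differed from each other more than either did from ATC1. Off the arm, 20.8% of 15271 genes were at least 2-fold apart between ATC2 and ATC4, and 15.3% between ATC1 and ATC3. Between clones of different pairs the numbers were 2284 genes for ATC1 and ATC2 and, as shares, 15.3% for ATC1 and ATC4, 17.5% for ATC2 and ATC3 and 21.5% for ATC3 and ATC4. The 2 raised clones were thus the second most distant of the 6 pairings. The median absolute log2 difference ran from 0.35 for ATC1 and ATC4 to 0.48 for ATC3 and ATC4.

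**Figure D4:**
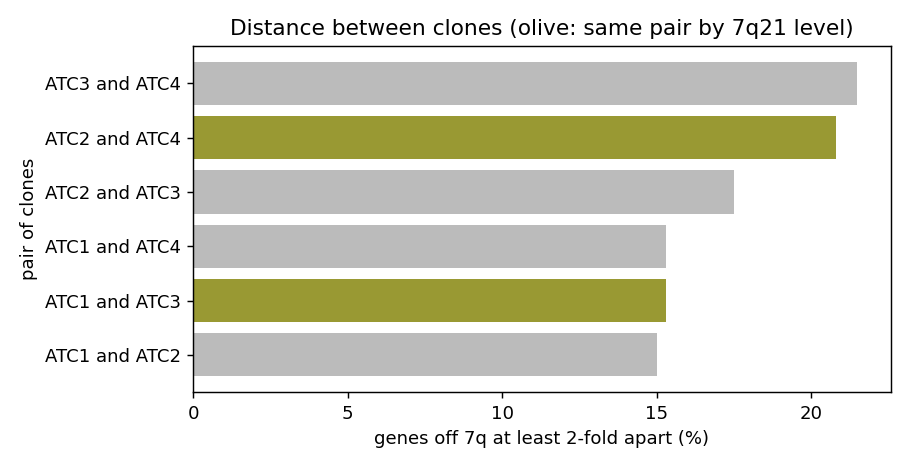
Share of compared genes off the long arm of chromosome 7 that are at least 2-fold apart (x axis, %) for each of the 6 pairings of clones (y axis), with the 2 pairs set by 7q21 level in olive. ATC2 and ATC4 are 20.8% apart and ATC1 and ATC3 15.3%.

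Gene lists were described by how many members had no overlap between the pairs, beside 15.1% higher and 15.2% lower over all genes compared. No list had a member called by edgeR. Genes of energy metabolism leaned lower in ATC2 and ATC4. Of 40 nuclear genes of oxidative phosphorylation, 21 were lower without overlap and 0 higher, with a median pair difference of -0.39 (all genes -0.01). Relative to Parental_1 the list medians were -0.41, -0.70, -0.03 and -0.43 in ATC1 to ATC4, so ATC1 and ATC4 were near equal. NDUFA1, a complex I subunit, had 2352, 1351, 3089 and 1010 counts, and ATP5B, the ATP synthase beta subunit, had 28720, 19278, 32702 and 17841. The edgeR log2 fold changes were -1.15 ± 0.32 and -0.66 ± 0.32 (adjusted p = 0.999 for both).

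Of 13 mitochondrially encoded genes, 10 were lower and 0 higher, with a median of -0.50. MT-CYB had 133227, 78862, 153650 and 83314 counts against 70685 in Parental_1. In this gene ATC2 and ATC4 stood near the level of Parental_1 and ATC1 and ATC3 above it. The list as a whole stood otherwise. Its log2 medians relative to Parental_1 were 0.16, -0.43, 0.63 and 0.05 in ATC1 to ATC4, so ATC4 lay near ATC1. Of 27 genes of glycolysis and hypoxia, 12 were lower and 0 higher (median -0.35). Relative to Parental_1 their medians were -0.51, -0.90, -0.20 and -0.65 in ATC1 to ATC4. TPI1, triosephosphate isomerase, had 8308, 5583, 10384 and 5739 counts against 10823, and GAPDH had 38101, 24078, 37063 and 29280 against 57776. The median pair differences of these 3 lists stayed below 0 with each clone left out in turn, from -0.21 to -0.56, -0.32 to -0.82 and -0.24 to -0.45. The part of the mitochondrial share of counts given above in these results was not tested.

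Of 33 genes of cholesterol and fatty acid synthesis, 11 were lower and 2 higher, and the median of -0.34 was 0.02 without ATC2. INSIG1, which retains the sterol sensor in the endoplasmic reticulum and lies on the long arm of chromosome 7, had 5143, 1588, 3132 and 2788 counts. Of 20 globin and heme synthesis genes, 6 were lower and 0 higher, and the median of -0.34 was -0.00 without ATC2 and -0.83 without ATC1. HBA2, an alpha-globin gene that is a near copy of HBA1, had 982, 238, 1255 and 569 counts against 603. Of 26 genes of the erythroid membrane and its regulators, 8 were lower and 1 higher, and the median of -0.24 was 0.03 without ATC2. CA1, carbonic anhydrase 1, had 673, 230, 2387 and 465 counts against 162. Of 25 NRF2 and oxidative stress genes, 9 were lower and 2 higher (median -0.34, and -0.13 without ATC3).

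Stress genes of the endoplasmic reticulum and of ATF4 leaned higher. Of 26 ATF4 and integrated stress genes, 9 were higher and 0 lower, with a median of 0.35 that ran from 0.10 without ATC1 to 0.70 without ATC4. Relative to Parental_1 the list medians were -0.33, 0.45, 0.03 and 0.05 in ATC1 to ATC4, so ATC3 and ATC4 were near equal. DDIT4, an inhibitor of mTORC1, had 3095, 7543, 1509 and 6073 counts against 7155. In ATC2 and ATC4 it was near the level of Parental_1, but at -1.31 and -1.64 relative to Parental_2 on the log2 scale. Its edgeR log2 fold change was 1.66 ± 0.37 (adjusted p = 0.999, and 0.0129 in DESeq2). SLC7A11, the cystine importer, had 1177, 1904, 962 and 1799 counts against 1255, and CHAC1, which degrades glutathione, had 157, 343, 108 and 280 against 274. ASNS, asparagine synthetase on the long arm of chromosome 7, did not follow, with 5663, 9634, 10743 and 4535 counts. Of 20 endoplasmic reticulum chaperone genes, 9 were higher and 1 lower, with a median of 0.27 that ran from 0.13 to 0.39 with 1 clone left out. Relative to Parental_1 their medians were 0.02, 0.55, 0.17 and 0.26 in ATC1 to ATC4. EDEM1, which sorts misfolded glycoproteins for degradation, had 1902, 2958, 1243 and 2623 counts against 1327.

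Of 32 interferon response genes, 11 were higher and 2 lower, but the median of 0.05 turned to -0.11 without ATC2 and -0.10 without ATC3. IFIT2, an antiviral protein, had 73, 230, 44 and 117 counts against 17 in Parental_1. SAMD9L, an interferon-induced gene, had 192, 365, 44 and 283 against 27, and it lies in the stretch beside CDK6. Of 15 antigen presentation genes, 5 were higher and 1 lower, with a median of 0.34 that was 0.65 without ATC1 and 0.22 without ATC4. Of 16 HOX genes 6 were higher and 1 lower, and the median of 0.28 was 0.03 without ATC1 and 0.54 without ATC3. Of 52 histone methyltransferases and demethylases 14 were higher and 6 lower, with a median of 0.11 that was 0.05 without ATC3. HOXD4, with 6, 17, 6 and 34 counts, was the one member of these 3 lists with the pairs 2-fold apart.

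Targets of doxorubicin did not separate the pairs by 2-fold. TOP2A, topoisomerase II alpha, measured 330, 297, 275 and 644 CPM in the clones in order, where Parental_1 had 662 CPM and Parental_2 1160 CPM. ATC4 alone stood at the level of Parental_1, but it was at -0.85 relative to Parental_2 on the log2 scale. The edgeR log2 fold change of TOP2A was 0.64 ± 0.42 (adjusted p = 0.999). TOP2B measured 297, 322, 207 and 315 CPM against 465 CPM in Parental_1 and 555 CPM in Parental_2, with 0.34 ± 0.30 (adjusted p = 0.999). Of 20 drug efflux transporter genes, 2 were higher without overlap, ABCB1 and ABCB4, and 3 were lower. ABCA7, a lipid transporter, was one of the 3, with 6685, 1571, 2774 and 2056 counts against 2220, high in ATC1 above all. Of 30 proliferation genes 2 were higher and 3 lower, and of 36 genes of DNA damage response and repair 1 and 2.

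The remaining lists had few members apart by 2-fold. Without overlap, 5 of 13 stem and progenitor genes were higher and 0 lower, with a median of 0.18 that was 0.02 without ATC2 and 0.49 without ATC4. For 16 anthracycline target and metabolism genes the numbers were 3 and 3, for 14 G1 cyclins, kinases and inhibitors 3 and 0 (CDK6 among them), and for 28 STAT5, ERK and MYC outputs 3 and 2. For 23 p53 targets they were 2 and 4, with a median of -0.05 that was 0.07 when scaled by library totals. For 15 BCL2 family genes they were 1 and 4, for 25 NF-kB and inflammatory genes 1 and 1, and for 30 lysosome and autophagy genes 1 and 8. Among markers of blood and other cells, 2 of 16 granulocyte and monocyte genes were higher and 6 lower, and 1 of 26 megakaryocyte and platelet genes was higher and 2 lower. Of 8 lymphoid genes 1 was higher, of 13 epithelial and fibroblast genes 2 were lower, of 24 mesenchymal and adhesion genes 4 were higher and 3 lower, and of 16 imprinted genes 1 was higher and 1 lower.

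**Figure D5:**
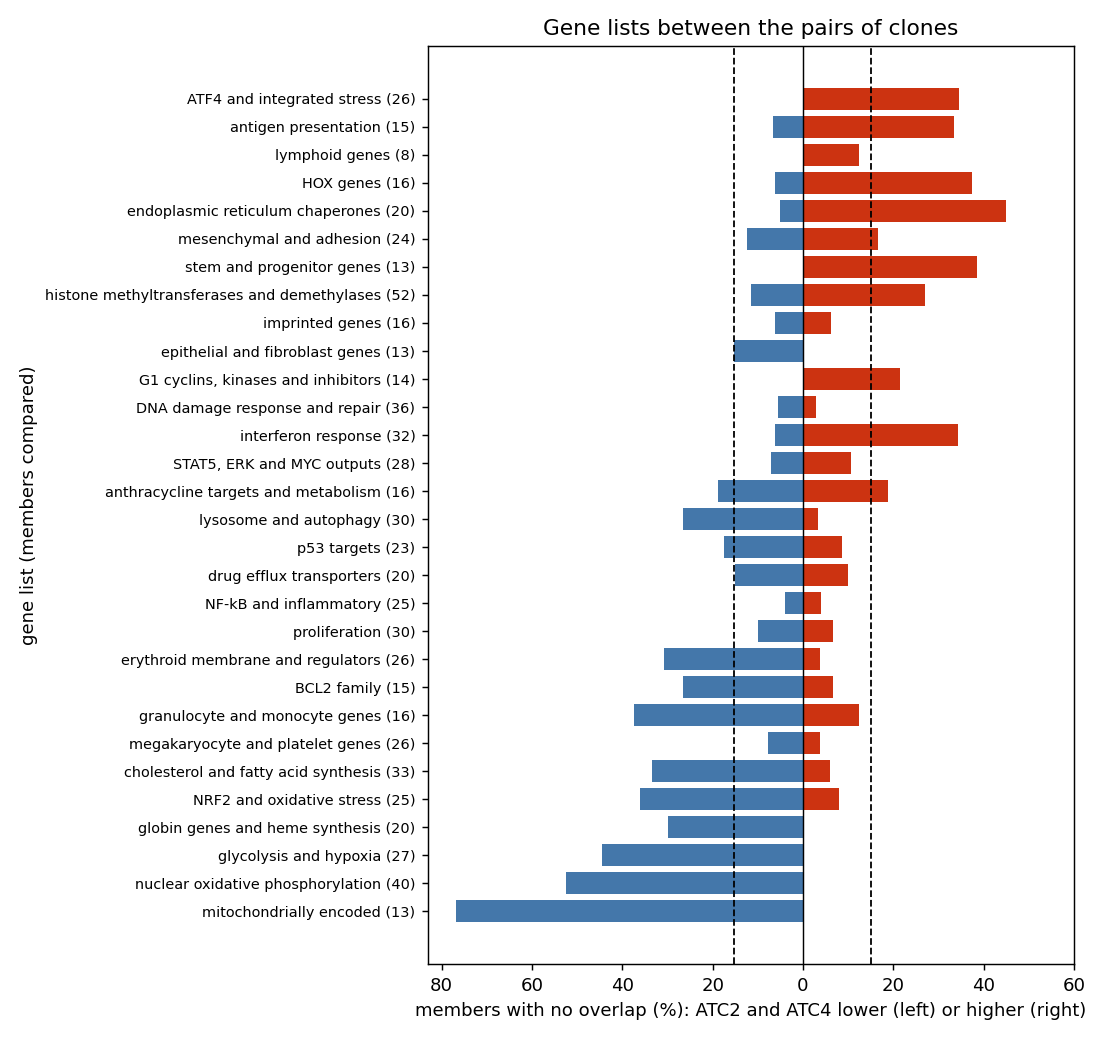
Share of each list's compared members (number in brackets) with no overlap between the pairs (x axis, %), lower in ATC2 and ATC4 to the left in blue and higher to the right in red, with dashed lines at 15.2% and 15.1% for all genes. Lists are ordered by median pair difference, from mitochondrially encoded genes (10 of 13 lower) to ATF4 genes (9 of 26 higher).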

How the data were processed

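RNA sequencing counts of 4 clones and 2 parental libraries of K562 were used. The deposited tables hold counts per gene, whole numbers of at least 1 in which 1 appears to have been added to each count, as read from the values. That 1 was taken off again, and a gene left blank for both libraries of a comparison was set to 0. Reads were placed on GRCh38, per the submitters' processing notes, with aligner and counter not given in the sources used here. Positions came from GENCODE 29 by Ensembl ID.

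Genes were tested with edgeR 4.0.16 (quasi-likelihood, TMM, its filter on low counts, R 4.3.3), 2 clones a side with 2 residual degrees of freedom. Pair differences used log2 CPM with a prior count of 2, over 15830 genes with at least 20 counts in a clone. DESeq2 1.42.0, limma-voom (limma 3.58.1), other scalings, filters, prior counts and each clone left out were alternatives, and the test was run on simulated data. P-values measure only the spread between these libraries. The members, lists and rules were chosen with earlier results of these data known. Named genes were the markers, the neighbours, TOP2A, TOP2B, the 10 highest and 10 lowest off the long arm of chromosome 7 by the smallest gap between pairs, the 8 highest on it, and up to 2 members per list each way at 2-fold. Other genes named were picked after their values were seen, and a few results under these rules are not reported here.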

Additional observations from a re-analysis of the deposited data

Results flagged for a closer look

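Of 89 named genes checked for a clone that stands apart from the other 3, 2 met this, and chance alone marks about 1 in 20 groups. GRM3 belongs to the set on which the pairs were chosen and TECPR1 was named after its values were seen, so neither supports anything further. GRM3, a glutamate receptor at the edge of the raised stretch, had 12, 218, 11 and 18 counts in the 4 clones in order. ATC2 lay apart by 0.845 of the range of the 4 clones on the log2 scale. TECPR1, beyond the raised stretches, had 553, 1984, 567 and 487 counts, and ATC2 lay apart by 0.878 of that range. In both genes the gap stood between the 2 clones of the raised pair.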

How the results depend on the processing

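Each pair has 2 clones with 1 library each, of at least 18420238 counts. No paired analysis was possible because a clone's number marks no link to any other sample. edgeR called 0 genes under other scalings, other filters and with Parental_1 added, and limma-voom called 0, while DESeq2 called 59 higher and 14 lower, of which 43 and 11 lie off the long arm of chromosome 7. Leaving out each clone gave 0 to 190 higher and 0 to 196 lower genes in edgeR, with 372 to 807 genes at least 2-fold higher and 242 to 756 lower. With 1 count required in place of 20 those 2-fold counts were 325 and 124, and at 4-fold they were 30 and 6. Under scaling by library totals the median of all edgeR log2 fold changes was 0.12 in place of 0.01. Of 476 values for lists and genes under other scalings and prior counts, 448 moved by less than the spread between clones. The pair difference of SEMA3D, 2.08, turned to -1.25 without ATC4, which alone carried its RNA, and was 5.40 without ATC2.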
